A study of Arabidopsis thaliana with 4 samples.

Results

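The genes of cuticular wax and cutin synthesis were compared between Another Col-0 and SALK Col-0, lines of the Columbia (Col-0) accession of Arabidopsis thaliana that are both labelled wild type (WT). The list held 44 gene identifiers of enzymes, exporters and transcription factors of the cuticle. A gene was taken as the row of the expression table that names its identifier and also holds an annotated transcript, and all 44 were found among the 36251 gene models of the table. RNA came from seedlings at an age of 2 weeks, grown in soil under long days at 22 °C. There were 2 libraries of Another Col-0 and 2 of SALK Col-0, numbered 1 and 2 in each line. Whether the libraries of a line came from separately grown plants is not stated beyond the words biological replicate, and p-values therefore measure the spread between these libraries. No treatment, mutation or transgene is named for either line.

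The cuticle is the lipid layer that seals the outer wall of the epidermis. Its waxes are built from fatty acyl chains that the endoplasmic reticulum elongates in repeated cycles of a condensing enzyme, a reductase, a dehydratase and a second reductase. The long chains are then turned into alkanes, aldehydes and ketones in one branch and into primary alcohols and wax esters in the other. Cutin is a polyester made of shorter oxygenated fatty acids joined to glycerol, exported through transporters of the ABCG class and linked outside the cell. In leaves and stems the layer limits water loss, and MYB and SHINE transcription factors control many of its genes.

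Levels are given as FPKM, a fragment number scaled to transcript length and library size, which allows levels of different genes to be set side by side. Differences are on the scale of log2(FPKM + 1), Another Col-0 minus SALK Col-0, and this scale understates differences of genes with low values. Testing was limited to genes that averaged 1 FPKM or more in the 4 libraries, which 37 of the 44 genes reached. CER1-L1, MAH1, CER4, WSD1, CYP86A4, MYB106 and SHN1 stayed under that mean, and their values are given without a test. By mean level, 7 genes lay under 1 FPKM, 5 between 1 and 10, 20 between 10 and 50, 8 between 50 and 150, and 4 above 150 FPKM. In order of level these 4 were CER6, LTPG1, KCS8 and KCS10, and the range over the 4 libraries of each did not overlap that of the next. The lowest was MAH1, with a mean of 0.0170 FPKM.

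The promoters of CER1, CUS2, KCS4 and KCS12 are shown because these genes were among those whose lines lay farthest apart. Each sequence is the 250 bases before the gene start in the RefSeq annotation of TAIR10.1, read 5′ to 3′ on the coding strand. Capitals mark matches to loose patterns in which N is any base, each searched on both strands. TAAATGNA is a loose form of the L1 box, a motif bound by epidermal homeodomain factors such as ATML1. ACCNANC is a loose form of the AC element, a motif bound by many MYB factors. A match to a loose pattern need not be a site of the stricter motif. The regions were chr1:418166-418415 on the plus strand for CER1, chr5:12604833-12605082 on the minus strand for CUS2, chr1:6728497-6728746 on the plus strand for KCS4 and chr2:12277418-12277667 on the minus strand for KCS12.
CER1: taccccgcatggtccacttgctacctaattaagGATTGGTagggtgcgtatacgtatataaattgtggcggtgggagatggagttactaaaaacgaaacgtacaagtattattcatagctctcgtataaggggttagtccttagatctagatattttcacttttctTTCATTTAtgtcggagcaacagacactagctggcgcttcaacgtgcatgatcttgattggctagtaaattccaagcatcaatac
CUS2: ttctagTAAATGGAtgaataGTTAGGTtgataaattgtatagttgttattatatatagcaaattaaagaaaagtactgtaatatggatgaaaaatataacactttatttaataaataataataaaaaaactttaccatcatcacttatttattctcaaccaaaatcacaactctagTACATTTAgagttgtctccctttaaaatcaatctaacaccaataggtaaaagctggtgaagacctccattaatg
KCS4: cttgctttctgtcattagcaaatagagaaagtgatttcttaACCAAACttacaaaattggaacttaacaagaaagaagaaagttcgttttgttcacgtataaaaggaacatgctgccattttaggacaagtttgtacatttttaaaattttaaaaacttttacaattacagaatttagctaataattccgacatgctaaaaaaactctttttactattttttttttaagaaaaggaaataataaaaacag
KCS12: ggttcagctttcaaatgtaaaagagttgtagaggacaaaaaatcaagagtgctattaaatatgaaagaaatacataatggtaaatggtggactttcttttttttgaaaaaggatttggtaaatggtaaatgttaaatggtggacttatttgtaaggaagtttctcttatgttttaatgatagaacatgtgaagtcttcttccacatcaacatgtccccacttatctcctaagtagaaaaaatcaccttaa
The CER1 promoter held 1 match to the L1 pattern that begins 84 bases before the start. It also held 1 match to the AC pattern, at 217 bases. The CUS2 promoter held matches to the L1 pattern at 244 and 74 bases and to the AC pattern at 230 bases. At the N of the L1 pattern, the CER1 match has A, and the CUS2 matches have G at 244 bases and T at 74 bases. The KCS4 promoter held only a match to the AC pattern, at 209 bases, and the KCS12 promoter matched neither pattern. The promoters of MYB16 and MYB106 matched neither pattern as well. No printed match overlapped another. The loose L1 pattern was present in 9 of the 44 promoters (20.5%), against 2720 of 27443 promoters of protein-coding genes (9.91%). The loose AC pattern was present in 19 of 44 (43.2%), against 27.8% of all. The GCC box GCCGCC, a motif of ERF factors such as SHN1, was present in 1 of 44 (2.27%), that of GPAT6, against 1.87% of all. These matches describe the letters in the window and are no evidence of binding.

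Across the tested genes the lines differed by little, and a few genes stood apart in each direction. The condensing enzymes KCS12 and KCS4 were higher in Another Col-0, while the alkane gene CER1, the cutin polymerase gene CUS2 and the regulator MYB16 were lower in Another Col-0. No gene passed the threshold of 0.05 on the adjusted p (limma, Benjamini-Hochberg over 20634 models), with 0 of 37 higher and 0 of 37 lower, and the smallest adjusted p was 0.199. The share called over all models tested was likewise 0%. At an unadjusted p under 0.05, limma listed 4 of the 37 genes as higher in Another Col-0 and 10 as lower, and over all models 10.2% were higher and 6.45% lower. With 2 libraries in each line, the smallest two-sided p of an exact permutation test is 0.33.

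The separation of the 4 values was counted beside the test. Both values of Another Col-0 lay above both values of SALK Col-0 for 9 of the 37 genes (24.3%), against 26.2% of all models tested. Both lay below for 14 of the 37 genes (37.8%), against 20.8% of all models tested. Under quantile normalization, a different scaling of the libraries, the split of the 37 genes was 5 higher and 18 lower without overlap, against 18.8% and 19.2% of all models. In the deposited values, the background restricted to annotated models was 29.3% higher and 23.2% lower. With the 7 genes of low level included, 10 of 44 were higher without overlap, 19 were lower without overlap and 15 overlapped. The background shares cover only models that averaged 1 FPKM or more, so this count has no matching share beside it. A further rule asked for no overlap and a difference of at least 0.4 within both replicate numbers. KCS12 and KCS4 met it upward, which is 5.41% against 4.96% of all models, and CER1, CUS2 and MYB16 met it downward, which is 8.11% against 3.22% of all models. Over annotated models alone these background shares were 5.51% upward and 3.59% downward. The upward share was therefore near the background. The smaller of the 2 differences was 0.54 for KCS4, just inside the rule, and 0.35 in size for BDG, just outside it.

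The median difference of the 37 genes was -0.07, with 14 positive and 23 negative values, against a median of 0.02 over all models tested. Within replicate number 1 the median was -0.04, and within replicate number 2 it was -0.08. The sign was the same within both numbers for 33 of the 37 genes. In these seedling samples, fewer cells of a type and less RNA per cell cannot be told apart for any of the differences that follow.

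**Figure D1:**
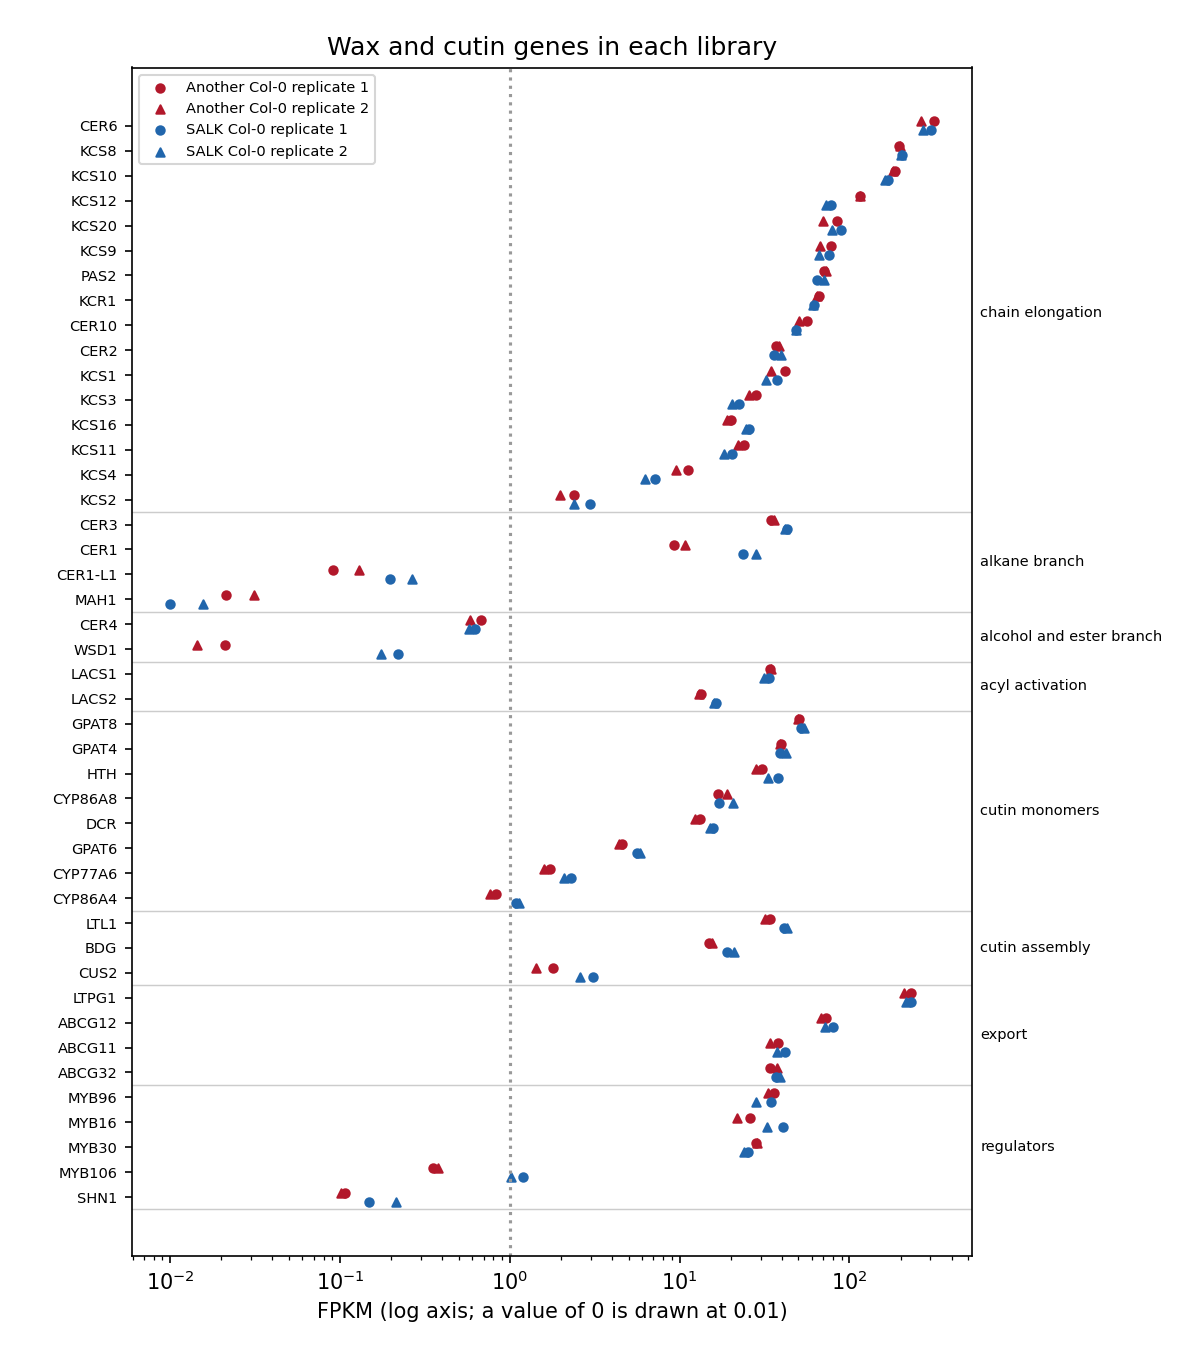
Level of each of the 44 genes in FPKM on a log axis, with red symbols for Another Col-0, blue symbols for SALK Col-0, circles for replicate 1 and triangles for replicate 2. Genes are grouped by role, the dotted line marks the 1 FPKM limit for testing, and the 0 of MAH1 in SALK Col-0 replicate 1 is drawn at 0.01. CER6 lies at the right end at 262 to 314 FPKM, and the red and blue symbols of CER1 are clearly apart.

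The chain elongation genes were mostly close to each other in the 2 lines or higher in Another Col-0. Of the 16 genes, all tested, 11 had a positive and 5 a negative difference, with a median of 0.09. For 7 of them both Another Col-0 values were above both SALK Col-0 values, for 2 they were below, and for 7 the lines overlapped, against 26.2% higher and 20.8% lower over all models tested. Under quantile normalization 9 were positive and 7 negative, with 4 higher and 3 lower without overlap, against 18.8% and 19.2% of all models. None passed the threshold of limma's test, and 3 were higher and 1 lower at an unadjusted p under 0.05, against 10.2% and 6.45% of all models.

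CER6 (AT1G68530, chromosome 1, 25712588 to 25714807), the main condensing enzyme for the longest wax chains, had 314 and 262 FPKM in Another Col-0 and 302 and 271 FPKM in SALK Col-0. Its lines overlapped, and the difference was 0.01 with a 95% confidence interval from -0.42 to 0.43. CER2, a BAHD-type protein that works with CER6 in making the longest chains, had 37.0 and 38.3 FPKM in Another Col-0 and 36.1 and 39.7 FPKM in SALK Col-0. These too overlapped, with a difference of -0.01 and an interval from -0.25 to 0.23. The other core enzymes of the cycle are the ketoacyl reductase KCR1, the dehydratase PAS2 and the enoyl reductase CER10, which ranged from 48.3 to 72.9 FPKM over all libraries. Their differences were 0.09, 0.08 and 0.13 in that order.

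The condensing enzymes, the ketoacyl-CoA synthases that choose which chains are extended, counted 12 with CER6 and had differences of both signs. KCS3, KCS4, KCS10, KCS11 and KCS12 were higher in Another Col-0 without overlap, KCS8 and KCS16 were lower without overlap, and CER6, KCS1, KCS2, KCS9 and KCS20 overlapped. Without overlap 5 of the 12 thus lay higher and 2 lower, against 26.2% and 20.8% of all models tested. The lower count was near the background. KCS12 (AT2G28630, chromosome 2, 12273395 to 12277344) had 115 and 116 FPKM in Another Col-0 and 78.0 and 72.5 FPKM in SALK Col-0. Both Another Col-0 libraries lay well above both SALK Col-0 libraries, and the means were 116 ± 0.719 FPKM in Another Col-0 and 75.2 ± 3.87 FPKM in SALK Col-0 (SD, n = 2 each). The ratio of the means was 1.54 and the difference 0.61 ± 0.0645 (SE), with an interval from 0.41 to 0.82 and an adjusted p of 0.199 (limma). Within replicate numbers 1 and 2 the difference was 0.56 and 0.67. Of 18432 annotated models tested, 578 (3.14%) had a larger positive difference.

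KCS4 (AT1G19440, chromosome 1, 6728806 to 6730943) is a much lower-expressed enzyme of the same family. It had 11.1 and 9.56 FPKM in Another Col-0 and 7.16 and 6.24 FPKM in SALK Col-0. The lines did not overlap, and the ratio of the means was also 1.54. The difference was 0.56 ± 0.119 (SE), with an interval from 0.18 to 0.94 and an adjusted p of 0.226 (limma). Within the replicate numbers it was 0.57 and 0.54, and 700 annotated models (3.8%) had a larger positive difference. The remaining ketoacyl-CoA synthases had smaller differences, from -0.34 for KCS16 to 0.32 for KCS3. KCS16, an enzyme that extends chains in trichomes, had 20.0 and 19.1 FPKM in Another Col-0 and 25.7 and 24.6 FPKM in SALK Col-0, and it was named after its values were seen. Its adjusted p was 0.21 (limma).

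Among pairs of related enzymes, the balance of levels differed for KCS12 against KCS20, 2 enzymes of the same family. The ratio of KCS12 to KCS20 was 1.37 and 1.65 in the libraries of Another Col-0 and 0.880 and 0.919 in those of SALK Col-0. KCS20 itself overlapped between the lines, with a difference of -0.12, so the ratio mostly repeats the difference of KCS12. The ratio of KCS20 to its close relative KCS2 was 35.2 and 35.4 in Another Col-0 and 29.7 and 33.2 in SALK Col-0. It too was higher in Another Col-0 without overlap.

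**Figure D2:**
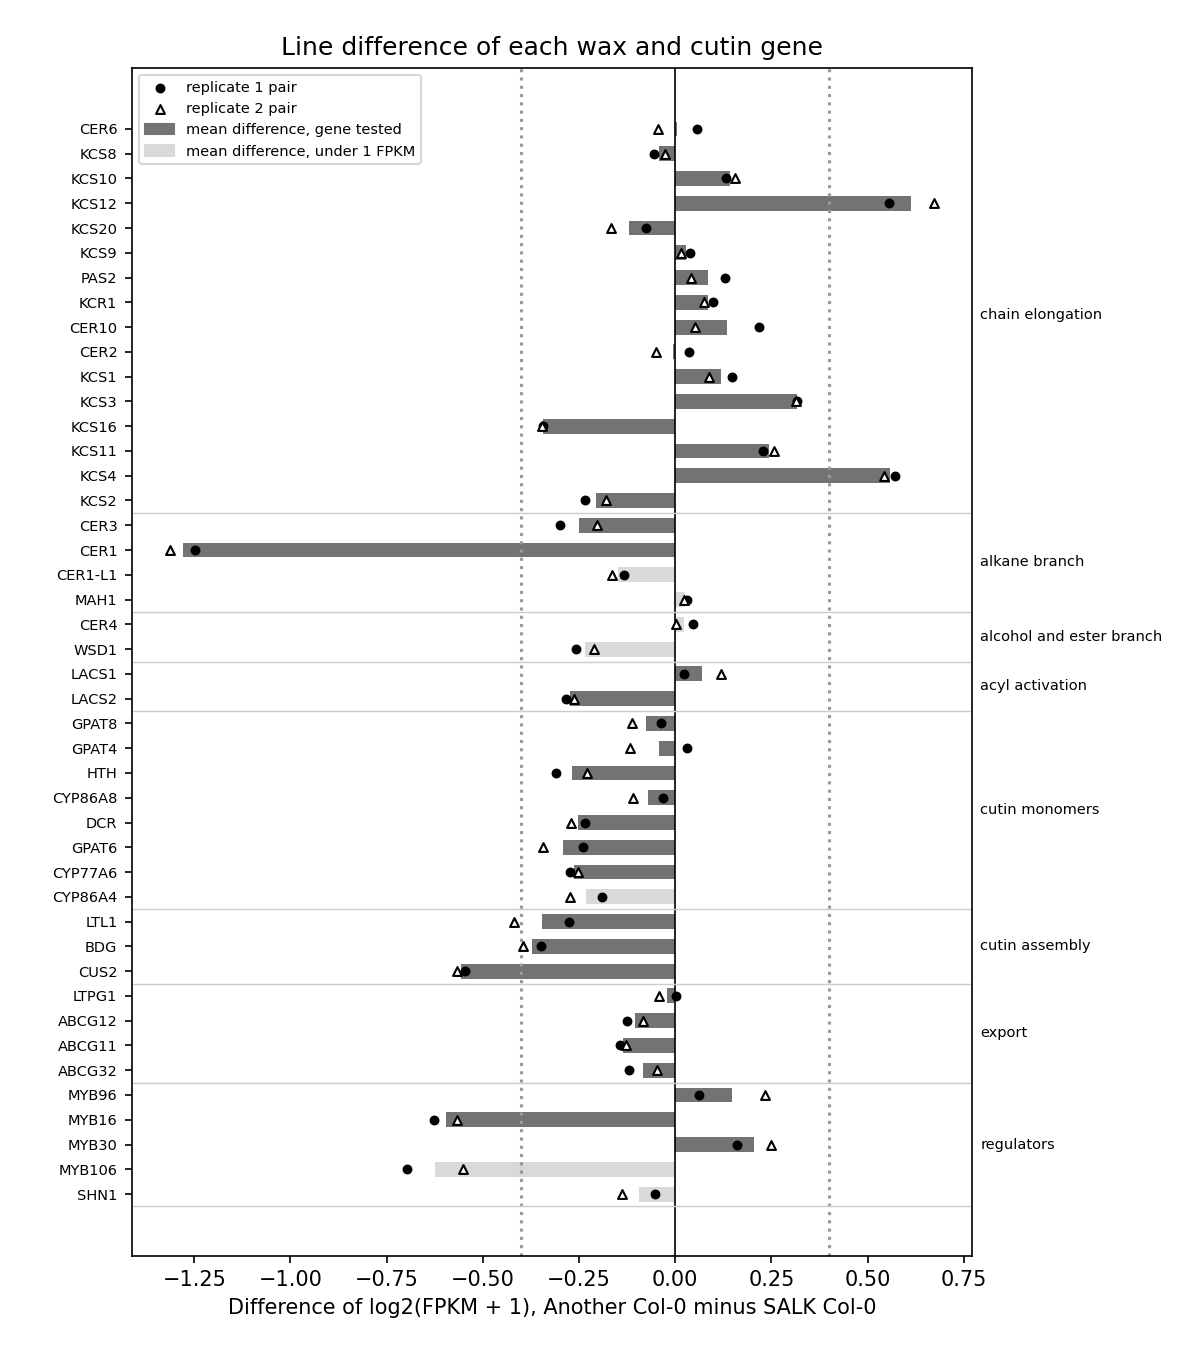
Difference of log2(FPKM + 1), Another Col-0 minus SALK Col-0, for each of the 44 genes in groups by role, with bars for the mean difference, dots for replicate number 1, open triangles for number 2, and pale bars for genes under 1 FPKM. Dotted lines stand at 0.4 on either side of 0. The bar of CER1 reaches -1.28, and every cutin gene has a bar to the left of 0.

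The alkane branch, where both tested genes were lower, held the gene with the largest difference of the list. CER1 (AT1G02205, chromosome 1, 418748 to 422438), the core enzyme that makes very long chain alkanes, had 9.32 and 10.8 FPKM in Another Col-0 and 23.5 and 28.3 FPKM in SALK Col-0. Both Another Col-0 libraries lay below both SALK Col-0 libraries. The means were 10.1 ± 1.05 FPKM in Another Col-0 and 25.9 ± 3.42 FPKM in SALK Col-0 (SD, n = 2 each), so that the mean of SALK Col-0 was 2.57 times that of Another Col-0. The difference was -1.28 ± 0.14 (SE), with an interval from -1.73 to -0.83, an unadjusted p of 0.00275 and an adjusted p of 0.199 (limma). Within replicate numbers 1 and 2 it was -1.25 and -1.31. Only 49 of the 18432 annotated models tested (0.266%) had a larger negative difference. The adjusted p was 0.0406 when the test was limited to annotated models that share no bundle of overlapping models with another (1 of 31 genes, against 0.482% of such models called lower), and 0.0843 over all annotated models.

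The partner of CER1 in alkane formation, CER3 (AT5G57800, chromosome 5, 23420209 to 23424052), had 34.7 and 36.1 FPKM in Another Col-0 and 42.9 and 41.7 FPKM in SALK Col-0. It too was lower in Another Col-0 without overlap, by a smaller step. The difference was -0.25 ± 0.0547 (SE), with an interval from -0.42 to -0.08 and an adjusted p of 0.231 (limma). The ratio of CER3 to CER1 was 3.72 and 3.34 in Another Col-0 and 1.82 and 1.47 in SALK Col-0. The ratio of CER6 to CER1 was 33.7 and 24.3 in Another Col-0 and 12.8 and 9.55 in SALK Col-0. Both ratios were thus higher in Another Col-0, with no overlap between the lines. Since CER6 itself overlapped, the ratio of CER6 to CER1 mostly repeats the difference of CER1.

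CER1-L1, a close relative that lies directly before CER1 on the same strand (415079 to 418010), had 0.0912 and 0.130 FPKM in Another Col-0 and 0.197 and 0.266 FPKM in SALK Col-0. Its lines did not overlap, at levels too low for the test. MAH1, the hydroxylase that turns alkanes into secondary alcohols and ketones, had 0.0212 and 0.0310 FPKM in Another Col-0, and in SALK Col-0 it was listed at 0 in replicate 1 and at 0.0157 FPKM in replicate 2. No library thus exceeded 0.0310 FPKM for MAH1.

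Both measured genes of the alcohol and ester branch were under 1 FPKM. CER4, the reductase that makes primary alcohols, had 0.673 and 0.581 FPKM in Another Col-0 and 0.622 and 0.579 FPKM in SALK Col-0, with overlapping lines. WSD1, the wax ester synthase, had 0.0210 and 0.0144 FPKM in Another Col-0 and 0.220 and 0.175 FPKM in SALK Col-0. Its mean in SALK Col-0 was 11.1 times that in Another Col-0, without overlap. The WSD1 model (chromosome 5, 14767499 to 14770249) lies inside the span of a model of AT5G37720 on the other strand, and the kit used for the libraries is not one that keeps strand. The model of AT5G37720 had 1108 and 46.3 FPKM in Another Col-0 and 1463 and 40.7 FPKM in SALK Col-0, so reads of the 2 models cannot be told apart and the WSD1 values are uncertain.

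**Figure D3:**
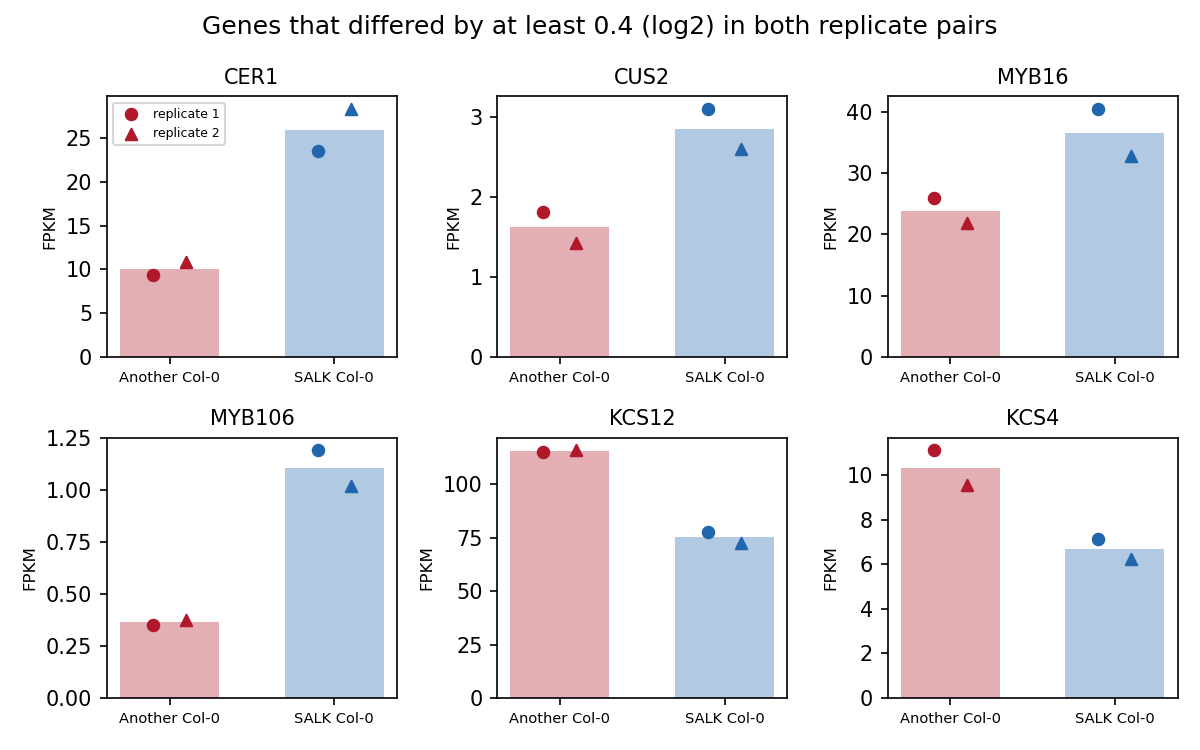
FPKM of CER1, CUS2, MYB16, MYB106, KCS12 and KCS4, with a bar for the mean of each line, Another Col-0 to the left in red and SALK Col-0 to the right in blue, and symbols for the 2 libraries of each line. In every panel the 2 symbols of one line lie apart from those of the other, with the Another Col-0 bar lower for CER1, CUS2, MYB16 and MYB106 and higher for KCS12 and KCS4.

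The acyl-CoA synthetases LACS1 and LACS2 activate fatty acids for wax and cutin. LACS1 had a difference of 0.07, and LACS2, which is needed for cutin, one of -0.27 with an interval from -0.44 to -0.11. LACS2 had 13.3 and 13.0 FPKM in Another Col-0 and 16.4 and 15.9 FPKM in SALK Col-0, and it was named after its values were seen. Its lines did not overlap, and its adjusted p was 0.219 (limma).

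The cutin genes of the list lay on the lower side in Another Col-0. Monomer synthesis and assembly together counted 11 genes, of which 10 were tested. All 10 had a negative difference, with a median of -0.27, and for 8 both values of Another Col-0 were below both values of SALK Col-0, while 20.8% of all models tested lay that way. None passed the threshold of limma's test (smallest adjusted p 0.215). At an unadjusted p under 0.05 limma listed 2 monomer genes and 3 assembly genes, all lower, against 6.45% lower among all models tested. Under quantile normalization all 10 remained negative. Again 8 lay lower without overlap, against 19.2% of all models under that scaling.

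The acyltransferases GPAT4 and GPAT8, which join acyl chains to glycerol in leaf cutin, had close values in the lines. GPAT4 overlapped, with 39.7 and 39.0 FPKM in Another Col-0 and 38.8 and 42.4 FPKM in SALK Col-0 and a difference of -0.04 with an interval from -0.26 to 0.18. GPAT8 had 50.6 and 50.02 FPKM in Another Col-0 and 51.9 and 54.2 FPKM in SALK Col-0, a difference of -0.08 with an interval from -0.25 to 0.09. GPAT8 did not overlap, although its lower SALK Col-0 value was close to the Another Col-0 values. GPAT6, the enzyme of flower cutin, had 4.58 and 4.40 FPKM in Another Col-0 and 5.59 and 5.85 FPKM in SALK Col-0. It was lower in Another Col-0 in both libraries, by -0.29 ± 0.0685 (SE), with an interval from -0.51 to -0.07 and an adjusted p of 0.24 (limma). The ratio of GPAT4 to GPAT6 was 8.65 and 8.86 in Another Col-0 and 6.93 and 7.24 in SALK Col-0, again without overlap.

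The fatty acid hydroxylases of the P450 class add the groups by which cutin is linked. CYP77A6, which hydroxylates chains in mid-chain positions, had 1.72 and 1.58 FPKM in Another Col-0 and 2.29 and 2.08 FPKM in SALK Col-0, with a difference of -0.26 ± 0.122 (SE) and an adjusted p of 0.416 (limma). CYP86A4, a hydroxylase of chain ends, had 0.834 and 0.769 FPKM in Another Col-0 and 1.09 and 1.14 FPKM in SALK Col-0, at a mean under the limit for testing. Both were lower in Another Col-0 without overlap, while the related CYP86A8 overlapped, with a difference of -0.07. DCR, an acyltransferase needed for the main monomer of flower cutin, had 13.1 and 12.4 FPKM in Another Col-0 and 15.6 and 15.1 FPKM in SALK Col-0. Its difference was -0.25 ± 0.0608 (SE), with an adjusted p of 0.245 (limma), and it did not overlap. HTH, an oxidoreductase of cutin acids, had a difference of -0.27. CYP86A2, a cutin hydroxylase outside the 44 genes that was named after its values were seen, lay the other way without overlap, with 92.1 and 89.2 FPKM in Another Col-0 and 78.7 and 85.2 FPKM in SALK Col-0. Its difference was 0.14, at an adjusted p of 0.428 (limma).

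All 3 assembly genes were lower in Another Col-0 without overlap, against 20.8% of all models tested. Their differences ran from -0.56 to -0.35, with a median of -0.37. CUS2 (AT5G33370, chromosome 5, 12602147 to 12604764), a GDSL-type cutin synthase that links monomers outside the cell, had 1.81 and 1.43 FPKM in Another Col-0 and 3.10 and 2.60 FPKM in SALK Col-0. The mean of SALK Col-0 was 1.76 times that of Another Col-0. The difference was -0.56 ± 0.154 (SE), with an interval from -1.05 to -0.07 and an adjusted p of 0.273 (limma), and it was -0.55 and -0.57 within the replicate numbers. Of the annotated models tested, 433 (2.35%) had a larger negative difference. The CUS2 model also names AT5G33365, and the values pool the reads of both. BDG, an extracellular hydrolase needed for an intact cuticle, had 14.8 and 15.6 FPKM in Another Col-0 and 19.1 and 20.8 FPKM in SALK Col-0. Its difference was -0.37 ± 0.0713 (SE), with an interval from -0.60 to -0.14 and an adjusted p of 0.22 (limma). The third assembly gene, LTL1, encodes a GDSL lipase and had a difference of -0.35, in a model that is 1 of 94 in its bundle of overlapping models.

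Levels of organ and epidermis marker genes are given beside the cutin genes, since a seedling mixes tissues. Of 8 epidermis markers, 7 were tested, of which 1 had a positive and 6 a negative difference, with a median of -0.19. None passed limma's threshold, 2 were lower at an unadjusted p under 0.05, against 6.45% of all models tested, and ALE1 was listed at 0. The homeodomain gene ATML1 had 42.3 and 42.9 FPKM in Another Col-0 and 46.2 and 46.6 FPKM in SALK Col-0, and the trichome gene GL2 had 3.72 and 4.07 FPKM in Another Col-0 and 5.35 and 6.81 FPKM in SALK Col-0. The summed FPKM of the epidermis list overlapped, with 1494 and 1683 in Another Col-0 and 1249 and 1614 in SALK Col-0. Most of that sum was LTP1, a lipid transfer protein named after its values were seen, which was the 1 marker with a positive difference and had 1190 and 1287 FPKM in Another Col-0 and 909 and 1117 FPKM in SALK Col-0. Of 9 flower markers, 6 stayed under 1 FPKM and 3 were tested, 2 with a positive and 1 with a negative difference, and their summed FPKM was 47.8 and 40.7 in Another Col-0 and 22.6 and 17.0 in SALK Col-0. The petal and stamen identity gene PI had 9.62 and 8.42 FPKM in Another Col-0 and 3.21 and 2.86 FPKM in SALK Col-0. Most of the flower sum was SEP3, with 35.7 and 30.1 FPKM in Another Col-0 and 17.2 and 12.2 FPKM in SALK Col-0. The other tested gene, SHP1, overlapped, with a difference of -0.04. The rest, under 1 FPKM, were named after their values were seen. AP1, AP3, AG and LFY lay higher and SEP1 lower without overlap, and SEP2 overlapped. Epidermis markers thus lay lower in most single genes, and the flower sum, mostly SEP3 and PI, was higher in Another Col-0. The part of these markers in the differences of the wax and cutin genes was not tested.

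Leaf and root markers were both measured in all libraries, and the tissue label names seedlings. The leaf list summed to 23036 and 23685 FPKM in Another Col-0 and 22029 and 24168 FPKM in SALK Col-0, with CAB1 listed at 0. The RBCS1A model of that list is 1 of 96 in its bundle of overlapping models. The root list summed to 110 and 100.1 FPKM in Another Col-0 and 117 and 114 FPKM in SALK Col-0. The leaf sums overlapped, and the root sums were lower in Another Col-0 without overlap. The root gene of highest level was PHO1, with 36.0 and 30.8 FPKM in Another Col-0 and 46.7 and 39.9 FPKM in SALK Col-0. Without PHO1 the root sums of the lines overlap. Of the 10 root genes tested, 2 lay higher and 3 lower without overlap, against 26.2% and 20.8% of all models tested, and 5 overlapped. The median difference was -0.11 for each of these lists, with 1 positive and 5 negative values among 6 leaf models tested and 4 positive and 6 negative values among 10 root genes tested. Single markers lay farther apart in both directions without overlap, with RBCS1A at 0.30 and CA1 at -0.50 in the leaf list and TIP2;3 at 0.64, PER64 at -0.40 and PHO1 at -0.36 in the root list, and none passed the threshold of limma's test. Over the whole table, 22495 to 22822 annotated models were above 0 FPKM in a library, and the median FPKM of annotated models at 1 FPKM or more was 15.2 to 15.6. The sum of FPKM over all models was 1590250 and 1228118 in Another Col-0 and 1762918 and 1076877 in SALK Col-0. It was thus higher in replicate 1 of each line. The read depth is not part of the table.

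All 4 exporters overlapped between the lines in the deposited values, while under quantile normalization 3 of the 4 lay lower in Another Col-0 without overlap, against 19.2% of all models under that scaling. ABCG12 and ABCG11 are transporters of the plasma membrane that carry wax, and ABCG11 carries cutin lipids as well. ABCG12 had 72.9 and 67.7 FPKM in Another Col-0 and 79.5 and 71.9 FPKM in SALK Col-0, a difference of -0.10 with an interval from -0.38 to 0.17. ABCG11 had 37.8 and 34.2 FPKM in Another Col-0 and 41.9 and 37.5 FPKM in SALK Col-0, a difference of -0.14 with an interval from -0.45 to 0.17. LTPG1, a lipid transfer protein anchored to the cell surface, had 230.1 and 210.1 FPKM in Another Col-0 and 229.8 and 216.4 FPKM in SALK Col-0, a difference of -0.02 with an interval from -0.28 to 0.24. The 4 exporters, with the cutin transporter ABCG32 at -0.08, all had small negative differences with a median of -0.09. The ABCG11 model overlaps AT1G17850 on the other strand over 596 bases, and the level of that gene was 13.9 and 15.0 FPKM in Another Col-0 and 15.1 and 15.3 FPKM in SALK Col-0.

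The regulators differed in direction. MYB16 (AT5G15310, chromosome 5, 4974671 to 4976227), a MIXTA-like factor that promotes cuticle formation in leaves and flowers, had 25.9 and 21.8 FPKM in Another Col-0 and 40.6 and 32.8 FPKM in SALK Col-0. Both values of Another Col-0 were below both values of SALK Col-0, whose mean was 1.54 times that of Another Col-0. The difference was -0.60 ± 0.162 (SE), with an interval from -1.11 to -0.08 and an adjusted p of 0.269 (limma). It was -0.63 and -0.57 within the replicate numbers, and 355 annotated models (1.93%) had a larger negative difference.

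The close relative MYB106 (AT3G01140, chromosome 3, 46396 to 48296) had 0.351 and 0.376 FPKM in Another Col-0 and 1.19 and 1.02 FPKM in SALK Col-0. The mean of SALK Col-0 was 3.04 times that of Another Col-0, and the lines did not overlap. MYB106 was not tested because its mean was 0.734 FPKM, and with no filter on low values its adjusted p was 0.154 (limma). Its model shares 1579 bases with AT3G01142 on the other strand, which had 5.13 and 5.51 FPKM in Another Col-0 and 6.40 and 6.26 FPKM in SALK Col-0, and reads of the 2 genes cannot be told apart without strand.

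MYB96, which activates wax genes in drought, had 36.0 and 33.4 FPKM in Another Col-0 and 34.5 and 28.3 FPKM in SALK Col-0. Its lines overlapped, with a difference of 0.15 and an interval from -0.27 to 0.56. MYB30, an activator of very long chain acyl genes in defence, had 28.3 and 28.5 FPKM in Another Col-0 and 25.2 and 23.8 FPKM in SALK Col-0. It was higher in Another Col-0 without overlap, by 0.20 ± 0.0567 (SE), with an interval from 0.02 to 0.39 and an adjusted p of 0.272 (limma). The ratio of MYB16 to MYB96 was 0.719 and 0.654 in Another Col-0 and 1.18 and 1.16 in SALK Col-0. SHN1, a factor of the AP2 class that promotes cutin and wax genes, had 0.107 and 0.102 FPKM in Another Col-0 and 0.148 and 0.212 FPKM in SALK Col-0, below the limit for testing.

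**Figure D4:**
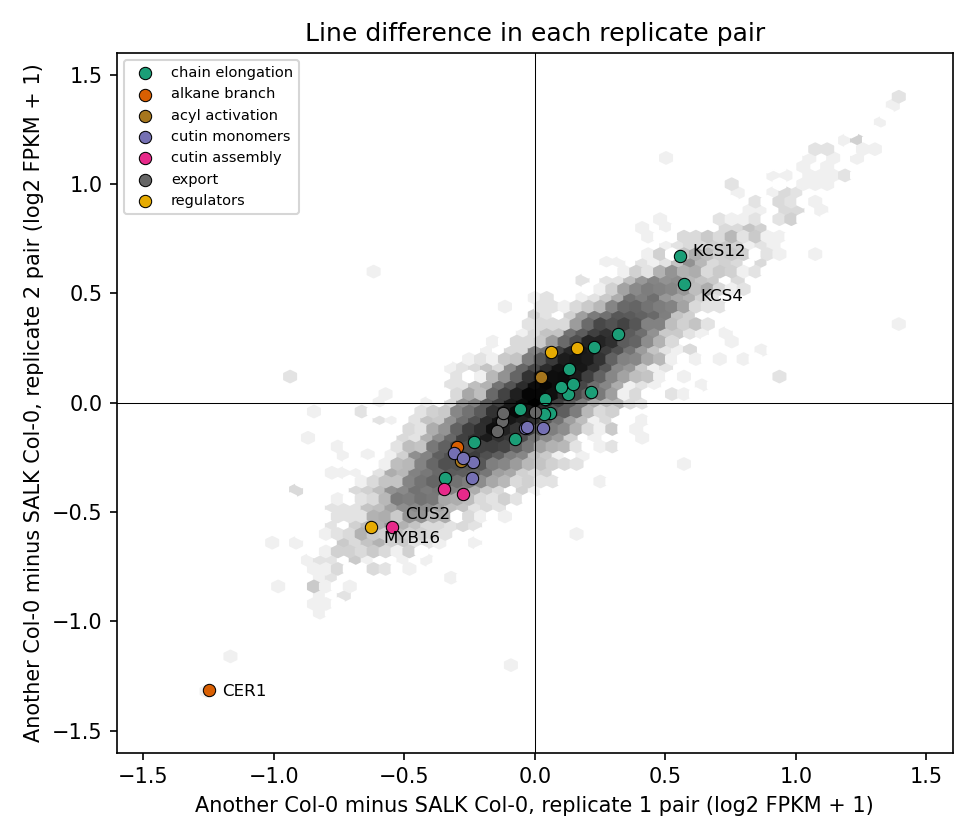
Difference of log2(FPKM + 1), Another Col-0 minus SALK Col-0, within replicate number 1 on the horizontal axis and within number 2 on the vertical axis, with coloured points for the 37 tested wax and cutin genes by role over a grey density of 18257 annotated models. CER1 lies at the lower left at -1.25 and -1.31, and the other 175 of the 18432 annotated models tested lie outside the axes.

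Genes of neighbouring pathways were counted in the same way. Of 33 further wax and cutin genes, 25 were tested, 13 with a positive and 12 with a negative difference and a median of 0.02. Without overlap, 7 of the 25 lay higher and 8 lower in Another Col-0, against 26.2% and 20.8% of all models tested, so that the higher share was near the background. SPL9, a factor of shoot age known to activate CER1, had 2.35 and 2.63 FPKM in Another Col-0 and 4.06 and 4.33 FPKM in SALK Col-0, a difference of -0.58. CER26, a relative of CER2 for the chain length of leaf wax, had 31.7 and 33.5 FPKM in Another Col-0 and 37.8 and 40.1 FPKM in SALK Col-0, a difference of -0.25. ABCG13, a transporter of flower cutin, had a difference of -0.30, and CER26-LIKE one of 0.22. None of the 25 passed the threshold of limma's test. At an unadjusted p under 0.05, 3 were lower and 0 higher, against 6.45% and 10.2% of all models tested.

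Of 13 suberin genes, which make the related polyester of roots and seed coats, 6 were tested, 3 with a positive and 3 with a negative difference and a median of -0.15. That median was 0.11 with a filter of 5 FPKM. FACT, an acyltransferase of suberin and alkyl esters, had 4.11 and 5.20 FPKM in Another Col-0 and 6.66 and 7.26 FPKM in SALK Col-0, a difference of -0.50. ASFT, a feruloyl transferase of suberin, had a difference of -0.42, FAR4, a reductase for suberin alcohols, one of -0.32 and its relative FAR1 one of 0.18. Of 20 genes of fatty acid synthesis, which supplies the chains, 19 were tested, 14 with a positive and 5 with a negative difference and a median of 0.13. KASI, a condensing enzyme of the plastid, had 98.5 and 109 FPKM in Another Col-0 and 77.6 and 84.8 FPKM in SALK Col-0, a difference of 0.35. The thioesterase FATA2, the dehydratase HAD2 and the enoyl reductase MOD1 had differences of 0.19, 0.25 and 0.21 in that order. In these 2 lists, too, 0 genes passed the threshold of limma's test. At an unadjusted p under 0.05 limma listed 1 suberin gene as higher and 1 as lower. It listed 3 fatty acid synthesis genes as higher and 0 as lower. Over all models tested, 10.2% were higher and 6.45% lower.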

How the data were processed

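Total RNA of 4 libraries was read as single ends of 101 nt, per the labels' protocols. The authors deposited FPKM values of 36251 gene models in each library, and next to it a status, a deposited field of another kind, as the file headers show. TopHat, Cufflinks, Cuffdiff and TAIR10 are named in the submitters' processing notes, without versions or roles in the sources used here. Depth is unknown, so no counting interval is given. Models whose status marked a failed or too deep estimate (19) were left out. In 301 rows of organelle genes, none of them a wax or cutin gene, annotation fields are displaced.

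Values were taken as log2(FPKM + 1). Models that averaged 1 FPKM or more (20634, of which 18432 hold an annotated transcript) were tested with limma 3.58.1 (R 4.3.3), with the line as the term, a mean-variance trend, 2 residual degrees of freedom, two-sided, and Benjamini-Hochberg adjustment at 0.05. The script was tested on simulated data. The members, lists and rules were chosen with earlier results of these data known. Library values are given for members that differ by at least 0.4 within both replicate numbers without overlap and for the main enzyme, exporter or regulator of each step; of other lists, up to 4 genes by smallest p were named. Exceptions are marked in the text. Alternatives covered the pseudocount, the filter, quantile normalization, restriction to annotated models or to those alone in their bundle, the trend, the replicate block and each library left out. Coordinates of genes are those of the deposited table (TAIR10), counted from 1. Promoters came from the RefSeq TAIR10.1 genome and annotation, and all 24407 models of a single protein-coding gene compared overlapped the same gene there (100%). Only 43.9% of them had a start or end at the same base. Motif positions count from the RefSeq start, which can differ from the start of the model. For CER1 the promoter ends at 418415, while the model starts at 418748.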

Additional observations from a re-analysis of the deposited data

How the results depend on the processing

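No member passed the threshold of limma's test with a pseudocount of 0.1, with no filter, with a filter of 5 FPKM, under quantile normalization, without the trend, over annotated models alone or with any 1 library left out; leaving out a library leaves 1 library in its line, which is then assumed to vary like the others. Of 20634 models, 0 passed in the main test. Over annotated models, 11 of 18432 passed. Over annotated models alone in their bundle, 196 of 11836 passed (1.66%), among them 1 member, CER1. With the replicate number as a block, 4624 models and 13 members passed (4 higher, 9 lower in Another Col-0), and 8231 models and 19 members over annotated models (6 higher, 13 lower). The share of all models passing was 14.3% higher and 8.11% lower with the block, and 26.6% higher and 18.1% lower with the block over annotated models. CER1, KCS12, KCS4 and MYB16 (adjusted p 0.0337 each) and CUS2 (0.0376) were among the members passing with the block. The labels do not say that a number marks a batch, and there are only 2 pairs; differences between replicates 1 and 2 correlated at 0.953 between the lines across models tested and at 0.789 across annotated ones.

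The members higher in Another Col-0 without overlap numbered 9 in the main count, 5 under quantile normalization and 10 to 14 with a library left out, 14 without Another Col-0 replicate 2. The median difference of all 37 tested members was -0.15 under quantile normalization and -0.08 to -0.05 with a library left out. For the further wax and cutin genes it was -0.02 under quantile normalization and -0.04 to 0.04 with a library left out. For the suberin genes it was -0.04 with no filter and 0.11 with a filter of 5 FPKM. For the fatty acid synthesis genes it stayed positive, at 0.03 to 0.22 with a library left out. Quantile normalization reversed CER6 (-0.15) and KCS9 (-0.0646). With a library left out, signs also reversed for CER2 (-0.0749 to 0.0616), CER6 (-0.12 to 0.13), KCS1 (-0.0129 to 0.25), KCS20 (-0.25 to 0.00661), KCS9 (-0.0839 to 0.14), GPAT4 (-0.11 to 0.0197), CYP86A8 (-0.19 to 0.0535) and LTPG1 (-0.0855 to 0.0448), none of which differed by more than 0.12 in the main test. The cause was not tested. Of 472 values of single members recomputed, 424 kept direction and side of the threshold, 33 newly passed and 15 reversed. Read depth is unknown, and genes under 1 FPKM rest on few reads.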

Other observations

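An unannotated model that spans 173 nt inside ABCG12 had 4.23 FPKM in replicate 1 and was listed at 0 in replicate 2 of Another Col-0, and it had 13.6 FPKM in replicate 1 and was listed at 0 in replicate 2 of SALK Col-0. It holds no annotated transcript and was left out of the ABCG12 values. KCS8 was the only 1 of the 44 genes of which stretches of 101 bases, the read length, occurred elsewhere in the genome, with 30 of 1853 such stretches.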
